A study of Mus musculus with 4 samples.

Results

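The Cyp2b genes encode cytochrome P450 enzymes of the liver, and 3 of them, Cyp2b10, Cyp2b9 and Cyp2b13, were followed here in livers of 2 Cyp3a-/- mice, which lack the Cyp3a cluster, and of 2 wild type mice. They were found as the non-control probes whose RefSeq accession belongs to one of these genes. Each gene had 1 probe, so the family was read from 3 of the 39429 probes on each array. Total liver RNA was labelled with Cy3 and hybridised to a 1-colour Agilent array, 1 array per liver. The Cyp3a-/- animals are described only by the loss of the cluster. The sources used here give no strain, sex, age, diet or treatment for either group. The labels speak of independent experiments on different animals.

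P450 enzymes of the Cyp2b family oxidise drugs, pesticides, steroids and fatty acids in the endoplasmic reticulum. Their best known regulator is the nuclear receptor CAR, the product of Nr1i3, which moves into the nucleus of the hepatocyte when the animal meets phenobarbital-like compounds and then binds DNA together with a retinoid X receptor. The related receptor PXR, the product of Nr1i2, shares many of these targets. In mouse liver Cyp2b10 is the classic inducible member, while Cyp2b9 and Cyp2b13 are known for higher expression in females than in males.

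The genes lie on the forward strand of chromosome 7, in the order Cyp2b10, Cyp2b13, Cyp2b9, with the pseudogenes Cyp2b28-ps, Cyp2b27-ps and Cyp2b26-ps between them in the RefSeq table of assembly GRCm38.p6. The promoter windows of Cyp2b10, Cyp2b9 and Cyp2b13 are printed here as a description, from RefSeq in GRCm38.p6. Each runs from 250 bases before the annotated start to 50 bases after it. The windows are chr7:25897408-25897707 for Cyp2b10, chr7:26173159-26173458 for Cyp2b9 and chr7:26061245-26061544 for Cyp2b13. Capitals mark the matches to the motifs described after them.
Cyp2b10: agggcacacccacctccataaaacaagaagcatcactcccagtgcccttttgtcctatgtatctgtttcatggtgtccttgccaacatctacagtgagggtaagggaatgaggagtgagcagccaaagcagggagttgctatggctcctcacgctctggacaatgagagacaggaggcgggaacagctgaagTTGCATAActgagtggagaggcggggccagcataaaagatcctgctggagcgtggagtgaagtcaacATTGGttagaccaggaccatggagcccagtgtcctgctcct
Cyp2b9: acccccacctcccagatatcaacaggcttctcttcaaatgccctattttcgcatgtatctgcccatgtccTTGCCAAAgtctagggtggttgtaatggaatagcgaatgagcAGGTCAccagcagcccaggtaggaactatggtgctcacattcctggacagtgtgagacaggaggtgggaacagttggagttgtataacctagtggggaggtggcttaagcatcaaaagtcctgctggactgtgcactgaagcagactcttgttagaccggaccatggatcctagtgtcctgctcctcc
Cyp2b13: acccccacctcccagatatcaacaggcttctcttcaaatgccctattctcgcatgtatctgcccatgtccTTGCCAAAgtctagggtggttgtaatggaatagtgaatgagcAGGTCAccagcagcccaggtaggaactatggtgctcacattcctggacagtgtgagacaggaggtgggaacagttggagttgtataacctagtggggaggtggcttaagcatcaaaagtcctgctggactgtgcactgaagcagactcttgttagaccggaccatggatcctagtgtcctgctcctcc

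The Cyp2b9 and Cyp2b13 windows were identical at 298 of 300 bases. With positions counted from 1 at the 5′ end of the window, and the Cyp2b9 base given first, the differences were T48C and C104T. Cyp2b10 was more distant, with 223 of 289 aligned bases (77.2%) shared with Cyp2b9 and as many shared with Cyp2b13. A set of short motifs was then searched on both strands.

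The core bound by C/EBP factors, TTGCNNAA, matched once in each window, at bases 193 to 200 for Cyp2b10 and at bases 71 to 78 for Cyp2b9 and Cyp2b13, and it was found in 10.8% of 32851 promoter windows. The stretch of Cyp2b9 and Cyp2b13 that aligned with the Cyp2b10 match read TTGTATAA, against TTGCATAA in Cyp2b10, which is C4T counted from the first base of that stretch. The nuclear receptor half-site AGGTCA matched once in Cyp2b9 and once in Cyp2b13, at bases 113 to 118 of each window, and was found in 16.3% of all windows. The CCAAT box matched once, as CCAAT on the reverse strand of the Cyp2b10 window, and was found in 37.4% of windows. This match lay at bases 260 to 264, after the annotated start of the gene. The TATA box TATAAA had 0 matches in the 3 windows and was found in 13.6% of all windows. The same held for the STAT core TTCNNNGAA (8.3% of all windows), the second half-site AGTTCA (14.0%) and the GC box GGGCGG (35.7%). The direct repeats called DR4, which CAR binds, were searched as the first half-site followed after 4 bases by either half-site, and so overlap the half-site matches. The repeat ending in the second half-site was in 0 of the 32851 windows and the repeat of the first half-site in 5, none of them a Cyp2b window. A match is a description of letters and no evidence of binding, and a missing match says only that these letters are not in the window. The distal enhancer through which CAR is known to act on Cyp2b10 lies further upstream than these windows and was not examined.

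**Figure D1:**
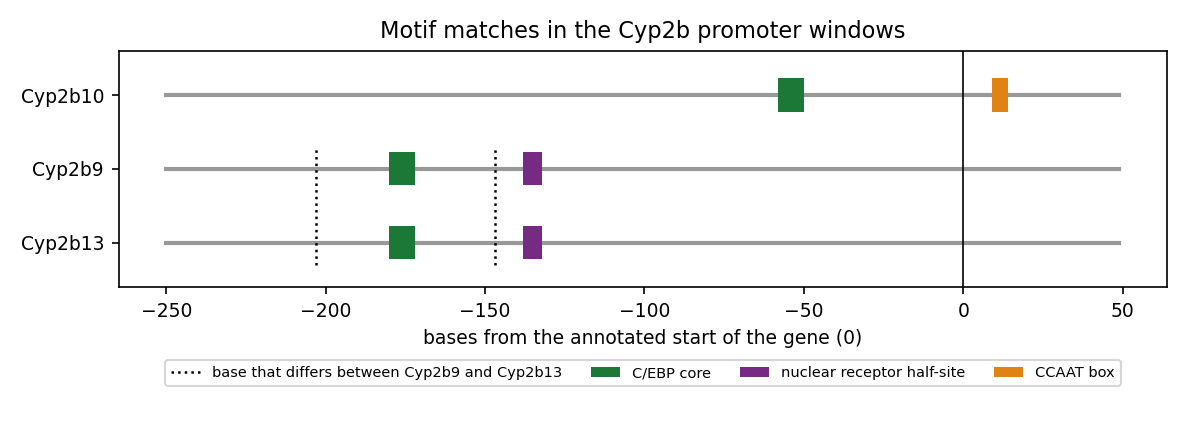
Positions of motif matches in the promoter windows of the 3 Cyp2b genes, on an axis of bases from the annotated start of the gene (0), with coloured blocks for matches and dotted lines for the bases that differ between Cyp2b9 and Cyp2b13. The Cyp2b9 and Cyp2b13 windows carry the same matches at the same places, and the Cyp2b10 match to the C/EBP core lies nearer the start.

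The arrays were alike in depth: 54.4% to 56.4% of their probes stood well above background, no spot was saturated (0 on each array), the 75th percentile of intensity was 308 to 352, and any pair of livers correlated at 0.977 to 0.992 over the features tested. Cyp3a11, the main Cyp3a gene of mouse liver, checked the genotype. It was well above background in neither Cyp3a-/- liver, at -6.98 and -6.93, against 7.94 and 8.09 in the wild type livers (log2 signal relative to the 75th percentile of the array), which places it at least 7204-fold lower (limma adjusted p = 1.4e-05). The liver markers Alb, Ttr and Apoa1 were well above background in all 4 livers, and their log2 fold changes were 0.15 ± 0.19, 0.08 ± 0.18 and -0.18 ± 0.27 (SE). The Cyp3a-/- arrays came from slides 2 and 3 and shared none with the wild type arrays, which were both on slide 1, so slide and genotype cannot be told apart. With slide as a random block in limma, at a correlation of 0.35 estimated here from pooled medians because limma's own estimator gave no value with 4 arrays, the adjusted p was 0.0082 for the Cyp2b10 log2 fold change and 0.042 for the Cyp2b9 log2 fold change described next. Only the wild type arrays share a slide, so that this correlation is poorly known.

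Cyp2b10 rose about 20-fold in Cyp3a-/- liver. Its processed intensity, the background-subtracted brightness of the spot, was 18849 ± 1885 in Cyp3a-/- 1 and 13739 ± 1374 in Cyp3a-/- 2, against 871 ± 87.2 in wild type 1 and 832 ± 83.2 in wild type 2 (± the scanner software's error for the spot). On the log2 scale relative to each array's 75th percentile, this was 5.91 and 5.48 in the Cyp3a-/- livers, against 1.48 and 1.24 in the wild type livers. Both Cyp3a-/- livers lay far above both wild type livers, with a gap of 4.0 between the nearest of them, while the livers of a genotype differed by 0.43 (Cyp3a-/-) and 0.24 (wild type).

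In the fit across all 17406 features with limma (linear models with variances drawn partly from all features), the log2 fold change of Cyp2b10 was 4.33 ± 0.23 (SE), from means of 5.69 ± 0.30 in Cyp3a-/- and 1.36 ± 0.17 in wild type livers (SD, n = 2 each). This is a 20.2-fold rise with a 95% interval of 13.6 to 29.8 (limma adjusted p = 0.0040). Over the 4 possible pairs of a Cyp3a-/- with a wild type liver the ratio ran from 16.0 to 25.4. Only 5 of the 17406 features had a larger fitted log2 fold change, and 3 of these were well above background in neither wild type liver, so that their fitted values are not exact.

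Cyp2b9 rose 16.0-fold in Cyp3a-/- liver, and in wild type liver its signal was close to background. Its processed intensity was 358 ± 36.0 in Cyp3a-/- 1 and 177 ± 18.0 in Cyp3a-/- 2, against 17.0 ± 3.85 in wild type 1 and 16.6 ± 3.62 in wild type 2. It was well above background in both Cyp3a-/- livers and in 1 of the 2 wild type livers, wild type 2. The log2 signal was 0.19 and -0.80 in the Cyp3a-/- livers, against -4.20 and -4.41 in the wild type livers. The genotypes did not overlap, but the Cyp3a-/- livers lay 0.99 apart, a wider gap than that of 94.4% of all features, with Cyp3a-/- 1 the higher.

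The log2 fold change of Cyp2b9 was 4.0 ± 0.35 (SE), from means of -0.30 ± 0.70 in Cyp3a-/- and -4.30 ± 0.15 in wild type livers (SD, n = 2 each). This was a 16.0-fold rise with a 95% interval of 8.75 to 29.3 (limma adjusted p = 0.023). The probe passed the filter on dim probes only through the Cyp3a-/- livers, where it is high, and the fold rests on a wild type signal near background. The ratio of single livers ran from 10.6 to 24.3. With normexp, a background correction that adds an offset and so shrinks changes of dim probes, and which was run on the median spot and background intensities instead of the processed intensity, the Cyp2b9 log2 fold change was 1.97 (limma adjusted p = 0.074). With no filter on dim probes the limma adjusted p was 0.135. The intervals of Cyp2b9 and Cyp2b10 overlap over most of their length, and the difference between their fold changes was not tested.

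Cyp2b13 was not detected in either genotype. Its processed intensity was 7.14 ± 3.48 in Cyp3a-/- 1 and 3.53 ± 3.51 in Cyp3a-/- 2, against 7.08 ± 3.97 in wild type 1 and 3.67 ± 3.66 in wild type 2, and the probe was well above background on none of the 4 arrays. The errors of these spots, 3.48 to 3.97, were of the order of the signals, and the genotypes overlapped. Cyp2b13 therefore did not pass the filter on dim probes, was not in the fit and has no fold change. Its promoter window differs from that of Cyp2b9 at 2 bases. Signals of different probes cannot be set against each other, so these arrays do not show whether the genes differ in expression. The files hold no probe sequences, so whether the Cyp2b9 probe also binds transcripts of Cyp2b13 or of a pseudogene was not tested.

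**Figure D2:**
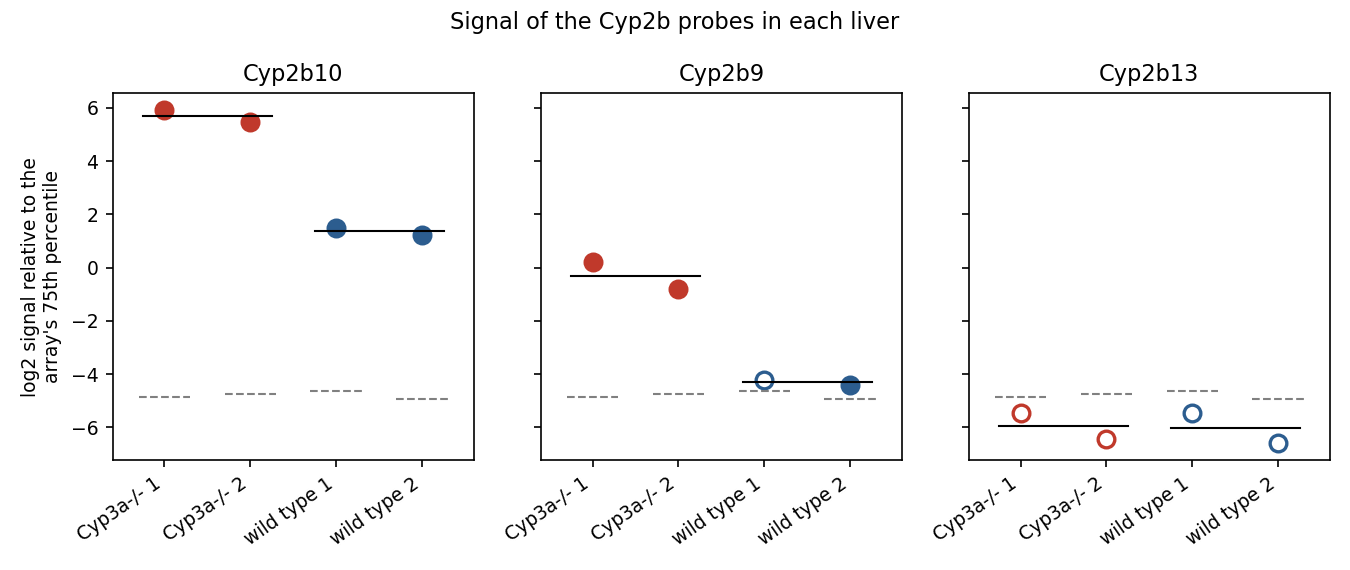
Signal of the Cyp2b10, Cyp2b9 and Cyp2b13 probes in each liver, as log2 processed intensity relative to the 75th percentile of the array (vertical axis), with 1 point per liver, filled where the probe was well above background. Solid lines are genotype means and dashed lines the lowest signal of any probe well above background on that array. Cyp2b10 stands at 5.91 and 5.48 in Cyp3a-/- livers, against 1.48 and 1.24 in wild type livers, Cyp2b9 at 0.19 and -0.80 in Cyp3a-/- livers, against -4.20 and -4.41 in wild type livers, and Cyp2b13 stays below the dashed lines in all 4.

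Of the 3 Cyp2b genes, 2 were tested and both were called higher at an adjusted p under 0.05, where 0.178% of all features were called higher and 0.276% in either direction. Cyp2b9 entered the test only through the Cyp3a-/- livers, so this count is a description. Both Cyp3a-/- livers lay above both wild type livers for these 2 genes, as they did for 22.5% of all features. The median log2 fold change over all features was 0.01, and 5% of features lay above 0.67. With 1 wild type liver left out, the lone wild type liver is assumed to vary like the Cyp3a-/- pair, which alone gives the spread, and both calls were lost. The Cyp2b10 log2 fold change was 4.45 without wild type 1 (limma adjusted p = 0.126) and 4.21 without wild type 2 (limma adjusted p = 0.148). The Cyp2b9 log2 fold change was 4.11 without wild type 1 (limma adjusted p = 0.249) and 3.90 without wild type 2 (limma adjusted p = 0.367). With 1 Cyp3a-/- liver left out, the lone Cyp3a-/- liver is assumed to vary like the wild type pair, which shares a slide. That pair alone gives the spread, and for Cyp2b9 it lay near background, 0.21 apart against 0.99 for the Cyp3a-/- pair. Both calls held in these fits, but this does not make them firmer. Whole liver RNA was measured, so that more expressing cells and more transcript per cell cannot be told apart.

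**Figure D3:**
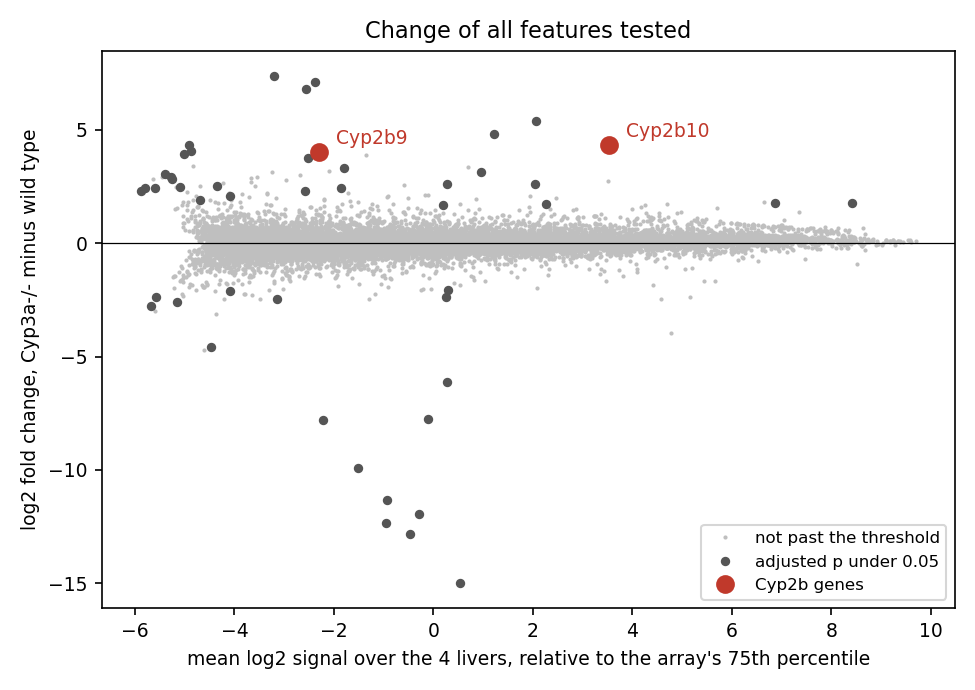
Log2 fold change (Cyp3a-/- minus wild type, vertical axis) against the mean log2 signal over the 4 livers (horizontal axis) for the 17406 features tested, with dark points for those at an adjusted p under 0.05. Cyp2b10 at 4.33 and Cyp2b9 at 4.0 lie above nearly all features, of which 5% exceed 0.67.

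The profiles of Cyp2b10 and Cyp2b9 over the 4 livers were each other's nearest. Likeness was measured as the Euclidean distance between log2 signals centred on each gene's mean over the 4 livers, among 13094 features with a gene name, and a large change in common weighs heavily in it. The distance between Cyp2b10 and Cyp2b9 was 0.52. Next to Cyp2b10 stood the sulfotransferase gene Sult2a7 (0.59), Tmeff2, which encodes a membrane protein (0.95), Xlr4b (1.09) and the aldo-keto reductase gene Akr1b7 (1.1). Next to Cyp2b9 stood Akr1b7 (0.72), the hair keratin gene Krt31 (0.83), Sult2a7 (0.83) and Wif1, which encodes a secreted inhibitor of Wnt signalling (1.13). The distances of Tmeff2 and Wif1 rest on wild type signals below background and are not exact. These distances describe 4 livers and say nothing of shared control.

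Sult2a7 followed the same order of livers as the Cyp2b pair, at 4.05 and 3.18 in the Cyp3a-/- livers, against -1.18 and -1.23 in the wild type livers. Akr1b7 stood at 0.30 and -0.60 in the Cyp3a-/- livers, against -3.50 and -3.42 in the wild type livers. For Cyp2b10, Cyp2b9, Sult2a7 and Akr1b7 alike, Cyp3a-/- 1 was the higher of the Cyp3a-/- livers, an order that choice by nearest profile favours. Krt31 and Wif1 had the same order. Xlr4b (-1.08 in Cyp3a-/- 1 and -0.22 in Cyp3a-/- 2) and Tmeff2 (-3.27 and -2.42) had the opposite order. Krt31 reached 2.99 and 1.75 in the Cyp3a-/- livers, against -1.25 and -0.74 in the wild type livers, but did not pass the threshold (log2 fold change 3.37 ± 0.44, limma adjusted p = 0.093). Wif1 and Tmeff2 were well above background in neither wild type liver, which places them at least 1.89-fold and at least 3.85-fold higher.

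None of the genes that carry the CAR signal passed the test. Of 24 measured receptors, coregulators and chaperones, 0 were called in either direction by limma, against 0.276% of all features. At an unadjusted p under 0.05 in limma there were 5 of the 24, a larger share than the 10% of all features. The median log2 fold change of the 24 was -0.02. Nr1i3, the gene of CAR itself, stood at 2.62 and 2.98 in the Cyp3a-/- livers, against 3.34 and 3.44 in the wild type livers. Both Cyp3a-/- livers were lower, with a log2 fold change of -0.59 ± 0.20 that did not pass the threshold (limma adjusted p = 0.444). Nr1i2, the gene of PXR, overlapped between genotypes at 1.86 and 1.64 in the Cyp3a-/- livers, against 1.21 and 2.01 in the wild type livers. Rxra, the gene of a retinoid X receptor that pairs with both, had a log2 fold change of -0.09 ± 0.19. Among the wider values of this group that missed the threshold were those of Gadd45b, a stress gene known both as a target and as a coactivator of CAR (2.06 ± 0.49, limma adjusted p = 0.288), Egfr, whose signalling is known to hold CAR inactive (-1.06 ± 0.19, limma adjusted p = 0.195) and Nr0b2, a repressor of nuclear receptors (-0.92 ± 0.26, limma adjusted p = 0.344).

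P450 enzymes need electrons and heme. Of 16 genes of this supply, 0 were called by limma (2 at an unadjusted p under 0.05, near the 10% of all features), with a median log2 fold change of 0.08. Por, the reductase that feeds electrons to all microsomal P450 enzymes, was at 5.69 and 5.43 in the Cyp3a-/- livers, against 4.11 and 4.36 in the wild type livers. The genotypes did not overlap for Por, but its log2 fold change of 1.32 ± 0.20 missed the threshold (limma adjusted p = 0.137). Cyb5a, an electron donor to some P450 enzymes, had 0.58 ± 0.17 (limma adjusted p = 0.380). Alas1, the rate-limiting enzyme of heme synthesis, overlapped between genotypes, at 6.41 and 6.91 in the Cyp3a-/- livers, against 5.33 and 7.26 in the wild type livers.

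Of the other known targets of CAR and PXR, most measured members lay above 0 and a few were called. Of 45 genes, 39 were measured, 4 were not matched on the array and 2 were too dim; 5 of the 39 (12.8%) were called higher, against 0.178% of all features, with 0 lower and 34 that did not pass. At an unadjusted p under 0.05 there were 24 of the 39, against 10% of all features. The 5 were the P450 gene Cyp2c55 (log2 fold change 5.39 ± 0.34), Sult2a7 (4.82 ± 0.31), Akr1b7 (3.31 ± 0.32), Slco1a4, which encodes a carrier that brings organic anions into the hepatocyte (3.15 ± 0.23), and the carboxylesterase gene Ces2a (1.76 ± 0.18), with limma adjusted p between 0.0086 and 0.040. The median of the 39 was 0.63, against 0.01 for all features, and 37 of 39 (94.9%) lay above 0, as did 51.4% of all features. Both Cyp3a-/- livers were above both wild type livers for 29 of the 39 (74.4%), against 22.5% of all features. The list was drawn up with earlier results of these data known, so its count is not independent evidence of a direction. Of its 45 genes, 10 also stand in other lists, so the counts of the lists are not separate.

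Among members that did not pass, values ran from -0.55 for the efflux pump gene Abcc4 to 2.06 for Gadd45b. Cyp2c38 stood at 1.81 ± 0.21 (limma adjusted p = 0.062) and the efflux pump gene Abcb1a at 1.72 ± 0.21 (limma adjusted p = 0.079). Cyp2c29, a common phenobarbital-responsive P450 gene, was at 7.70 and 7.42 in the Cyp3a-/- livers, against 6.52 and 6.51 in the wild type livers (1.04 ± 0.19, limma adjusted p = 0.204). Gstm3, a glutathione transferase gene, had 1.56 ± 0.35 (limma adjusted p = 0.267). The count of 5 fell to 0 without wild type 1 and to 0 without wild type 2, where 15 and 19 members had an unadjusted p under 0.05 in limma, and stood at 10 without Cyp3a-/- 2.

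**Figure D4:**
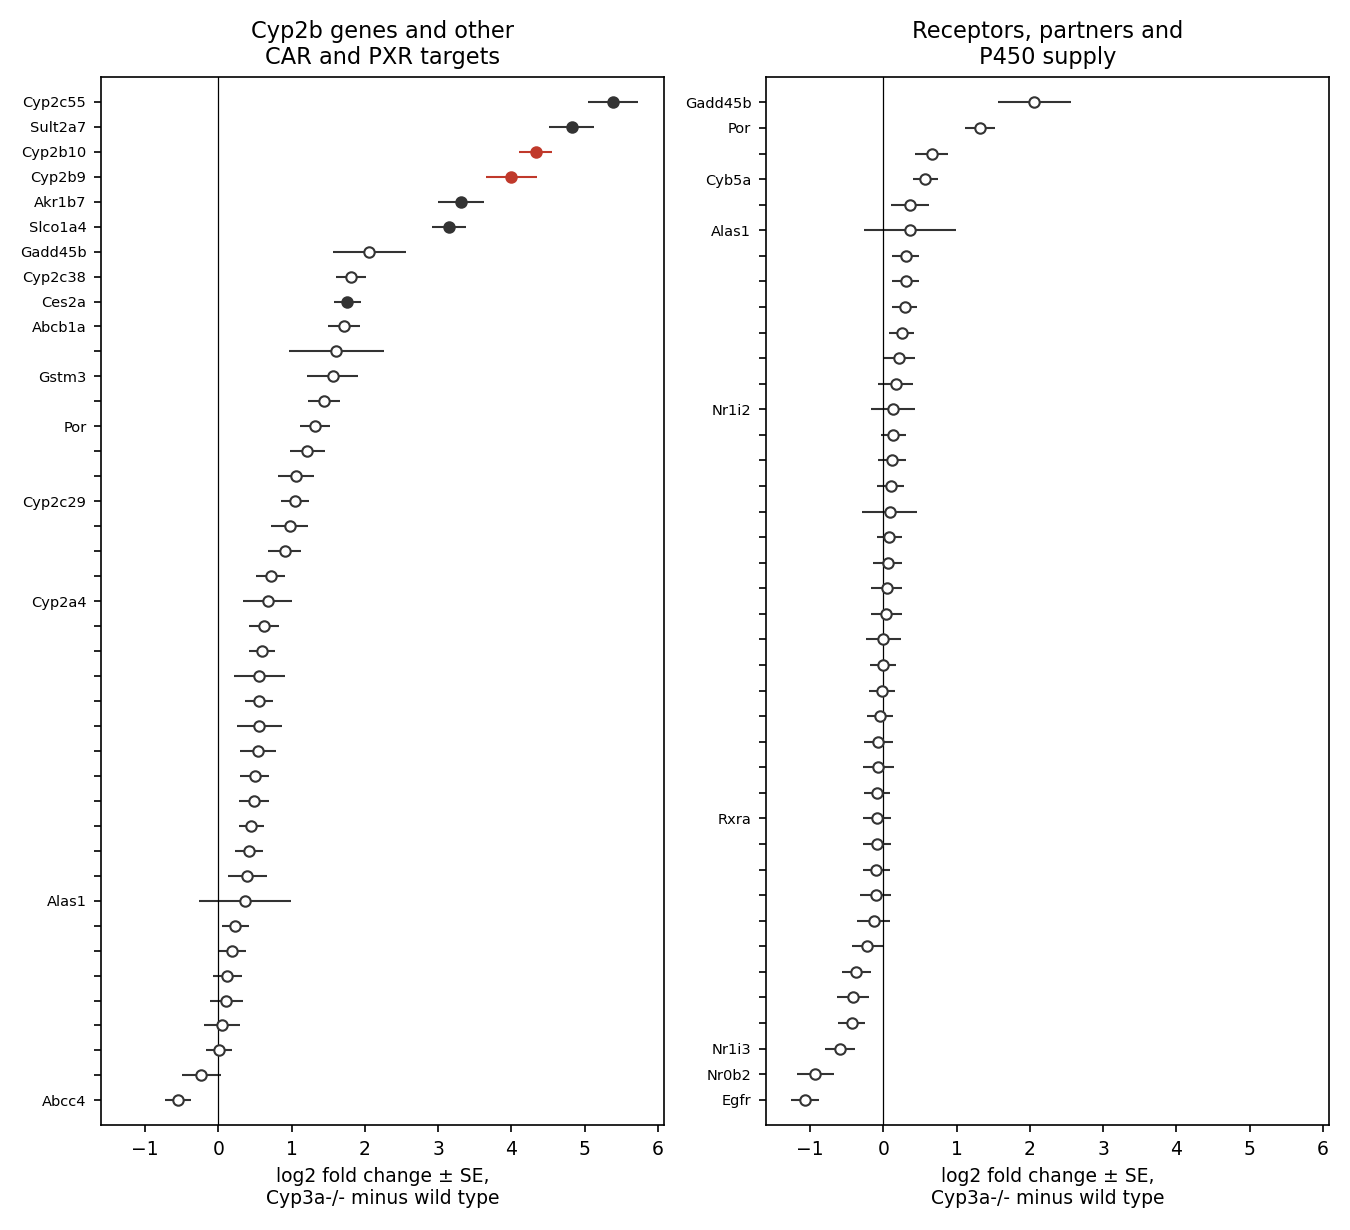
Log2 fold change ± SE (Cyp3a-/- minus wild type, horizontal axis) of the Cyp2b genes in red and other CAR and PXR targets (left), and of the genes of the receptors, their partners and the P450 supply (right), filled where the adjusted p was under 0.05 and named where the text describes the gene. Cyp2b10 at 4.33 and Cyp2b9 at 4.0 stand with Cyp2c55, Sult2a7, Akr1b7 and Slco1a4 at the top of the left panel, and no point on the right is filled.

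The P450 genes that share the chromosome 7 cluster did not follow the Cyp2b pair to the test's threshold. Of 10 such genes, 5 were measured and 0 were called by limma (1 at an unadjusted p under 0.05), where 0.276% of all features were called and 10% had such an unadjusted p, so a count of 0 among 5 is near the background. Cyp2f2 had a log2 fold change of 0.10 ± 0.17, Cyp2a12 of 0.01 ± 0.18, Cyp2t4 of -0.15 ± 0.19 and Cyp2a4, which has close copies, of 0.67 ± 0.34. Cyp2g1, known from the olfactory mucosa, was at -1.03 and -0.19 in the Cyp3a-/- livers, against -2.39 and -3.25 in the wild type livers. Its genotypes did not overlap, and its 2.21 ± 0.40 did not pass (limma adjusted p = 0.200). The remaining family members on the array were dim: Cyp2b19 was well above background in no liver, and Cyp2b23 in 1 of the 2 Cyp3a-/- livers and in no wild type liver. Among 16 genes beside the cluster that are not P450 genes, 15 were measured and 0 were called (0 at an unadjusted p under 0.05), with a median of -0.13.

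Cyp2b9 and Cyp2b13 belong to the genes that are higher in female mouse liver, so other sex-biased genes were read beside them. Of 30 other female-biased genes, 18 were measured and 0 were called by limma (4 at an unadjusted p under 0.05), against 0.276% and 10% of all features, with a median log2 fold change of 0.06. Another 9 were well above background in no liver, among them Cux2, a transcription factor of female liver, and A1bg. The 4 at an unadjusted p under 0.05 in limma also stand in another list, of CAR and PXR targets or of fasting and PPARA genes. The male-biased list had 27 measured genes, of which 6 had an unadjusted p under 0.05 in limma, against 10% of all features. Of the 27, 1 (3.7%) was called higher, against 0.178% of all features. This was Moxd1, a monooxygenase-like gene at least 49.8-fold higher, which was well above background in neither wild type liver and passed the filter only through the Cyp3a-/- livers. The median of that list was 0.11, and it held Serpina4-ps1 at -2.36 ± 0.27 and Susd4 at 1.51 ± 0.24, which did not pass.

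None of the measured sex chromosome genes was called. Xist, transcribed from the inactive X chromosome, was well above background in none of the 4 livers, and neither was Kdm5d of the Y chromosome. The Y-linked genes Ddx3y and Eif2s3y were well above background in all 4. Ddx3y was at 1.33 and 1.57 in the Cyp3a-/- livers, against 1.49 and 1.40 in the wild type livers. Eif2s3y was at 2.55 and 2.52 in the Cyp3a-/- livers, against 2.14 and 2.18 in the wild type livers (0.37 ± 0.17, limma adjusted p = 0.553). Uty had 1.23 ± 0.32 (limma adjusted p = 0.323), with 1 of the 2 wild type livers well above background.

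Genes raised by fasting or through the fatty acid receptor PPARA, a state known to alter Cyp2b expression, were read as well. Of 23 measured genes 0 were called by limma (8 at an unadjusted p under 0.05, against 10% of all features). Of the 23, 4 lay above 0, against 51.4% of all features, and the median log2 fold change was -0.46. This median does not stand for every member. Both Cyp3a-/- livers lay above both wild type livers for Pck1 (0.40 ± 0.23) and G6pc (0.38 ± 0.20), and below both for 11 of the 23. Neither Pck1 nor G6pc passed the threshold. Cyp4a14, a fatty acid hydroxylase gene, was at 4.15 and 1.45 in the Cyp3a-/- livers, against 5.89 and 7.63 in the wild type livers. The part of feeding state in the Cyp2b values was not tested. Of 45 markers of macrophages, stellate cells, endothelium, cholangiocytes and lymphocytes, 42 were measured and 0 were called by limma (3 at an unadjusted p under 0.05, where 10% of all features had one). Where 51.4% of all features lay above 0, 10 of 10 measured stellate, 9 of 11 macrophage and 5 of 7 lymphocyte markers lay below it. So did 4 of 9 endothelial and 3 of 5 cholangiocyte markers. The largest change among the 42 markers was that of the macrophage receptor gene Marco, at -1.47 ± 0.30 (limma adjusted p = 0.246).

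**Figure D5:**
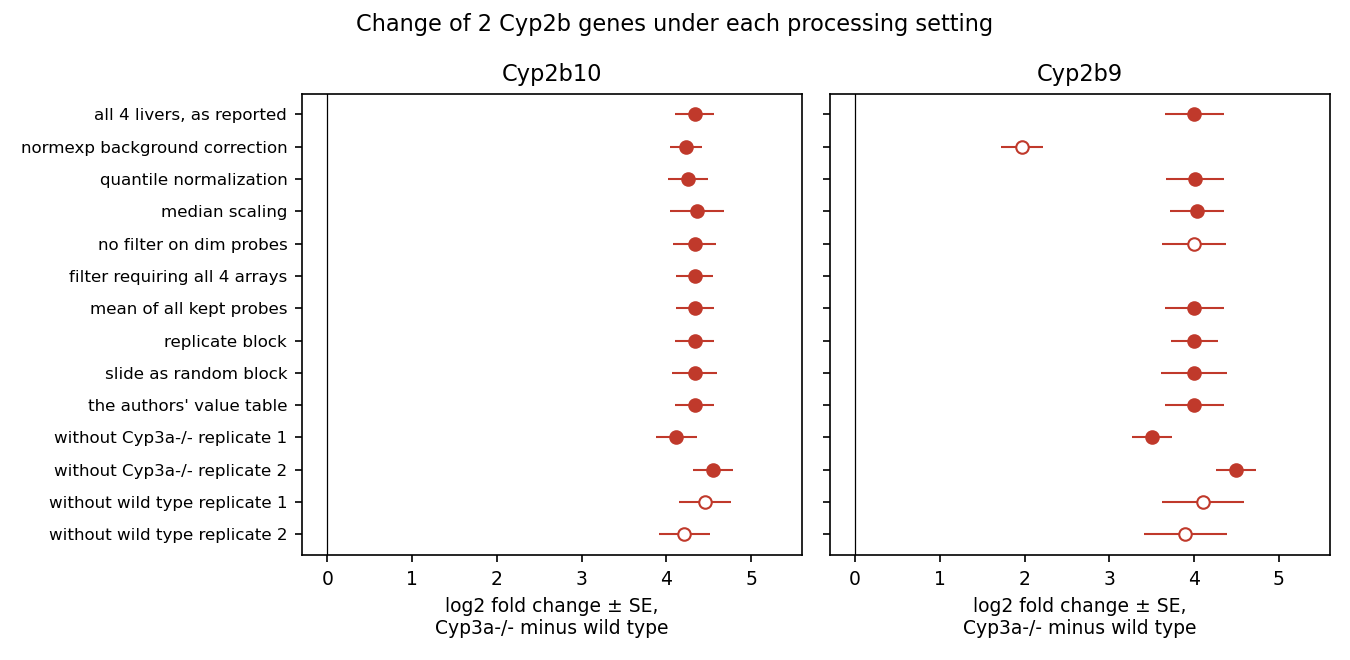
Log2 fold change ± SE (Cyp3a-/- minus wild type, horizontal axis) of Cyp2b10 (left) and Cyp2b9 (right) under each way of processing the arrays (rows), filled where the adjusted p was under 0.05. The Cyp2b10 log2 fold change stays between 4.12 and 4.55 throughout, while the Cyp2b9 log2 fold change stands at 1.97 with normexp and between 3.50 and 4.50 otherwise.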

How the data were processed

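Total RNA from 4 livers was hybridised to 1-colour Agilent mouse arrays (design build mm9). The deposited files give, per the file headers, the processed intensity of each spot from Agilent Feature Extraction 11.5.1.1, which is background-subtracted and spatially detrended but not normalized between arrays. The authors' deposited value table holds log2 values centred on each probe's median, with the procedure not given in the sources used here; its values matched the scaled scanner values after the same centring, and it served as an alternative.

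Here, each array's log2 processed intensity was set relative to its 75th percentile over 39429 non-control probes. Outlier spots were left out. Kept probes had the software's well-above-background mark on both arrays of at least 1 genotype, and the brightest kept probe stood for its gene. Probes were named through their accession in the RefSeq table of GRCm38.p6 (28025 named, 11404 not). The 17406 features were fitted with limma 3.58.1 in R 4.3.3, with Benjamini-Hochberg adjustment over all of them and a threshold of 0.05. At-least folds set a gene that was not well above background in a genotype at the lowest signal that was, per array. Promoter windows were aligned with Biopython 1.88.

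Named genes were the Cyp2b members, the 5 nearest genes by profile, Cyp3a11, and of each list the called members, up to 4 with the largest absolute change and up to 3 of fixed interest. Abcc4, Cux2, A1bg, Pck1 and G6pc were added after their values were seen. The members and lists were chosen with earlier results of these data known. With 2 livers per genotype, the number of arrays limits the precision. The test planned for Cyp2b13 was not run, as its probe was below background. The alternatives were normexp (offset 50), quantile and median scaling, other filters on dim probes, the mean of a gene's probes, replicate and slide blocks, the authors' table, and leaving out each liver. Results for some listed genes are not reported here.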

Additional observations from a re-analysis of the deposited data

How the results depend on the processing

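Under every alternative that gave a value, the log2 fold changes of Cyp2b10 and Cyp2b9 kept their sign. The Cyp2b10 log2 fold change ran from 4.12 to 4.55 with single livers left out. The Cyp2b9 log2 fold change was 1.97 with normexp (limma adjusted p = 0.074) and 4.0 with no filter on dim probes (adjusted p = 0.135), past the threshold in neither, and ran from 3.50 to 4.50 with single livers left out; a filter requiring all 4 arrays leaves it out. The number of genes called, 48, became 659 with median scaling, where limma's prior degrees of freedom were infinite, 13 with no filter and 9 with the filter requiring all 4 arrays, and was 94 without Cyp3a-/- 1, 506 without Cyp3a-/- 2, 8 without wild type 1 and 7 without wild type 2. The 5 other CAR and PXR targets called became 16 with median scaling, 3 with quantile normalization, 3 with the filter requiring all 4 arrays, 3 with slide as a random block and 0 with no filter (21 at an unadjusted p under 0.05 in limma), and ran from 0 to 10 with single livers left out. With the replicate number as a block, 58 features and 4 of these targets were called. The labels do not pair the numbers, and deviations of same-numbered livers correlated at -0.10. Of 907 values of named genes under the alternatives, 873 kept their status as called or not called, 26 lost a call and 8 gained one. The 873 include many values of genes called in neither fit, so they do not measure how stable the calls are. Signs were compared only where the gene was called in the fit reported above or under the alternative, and 0 of those changed. The causes of these shifts were not tested. With no filter on dim probes the fitted log2 difference of Cyp2b13 was 0.07 ± 0.52 (SE), between signals below background on all 4 arrays, and is no fold change.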
